A study of Mus musculus with 12 samples.

Results

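The genes described here are 34 mouse genes of nucleotide and one-carbon synthesis, taken as the rows of a liver RNA count table whose Entrez identifier belongs to a listed symbol, out of 26301 genes in that table. They fall into 6 roles. Ribonucleotide reductase has 3 members, the further supply of deoxynucleotides 6, the pyrimidine ring 5, the purine ring 11, one-carbon units 5, and the nucleoside diphosphate kinases and base salvage enzymes 4. Liver RNA was compared in 3 groups of 4 libraries. The control group was non-tumor liver of wild-type adult mice. The libraries labelled DKO came from spontaneous liver tumors of adult mice in which Cre, expressed under the albumin promoter, deleted E2f7 and E2f8, and those labelled TKO came from liver tumors of mice in which the same Cre deleted Rb1, E2f7 and E2f8. The sample titles call the wild-type livers adult, and no treatment is named in the labels. The paper describes its liver tumors as collected at the end of life. It gives no age for the sequenced control livers, so age may differ between controls and tumors. In the paper's survival study, mice were found dead or euthanized when moribund. The paper reports shorter lives in the triple knockout mice and a longer tumor latency in the double knockout mice. Age may thus differ between the tumor groups, where it cannot be told apart from the added loss of Rb1. The sample titles give no sex, and the paper found liver tumors almost only in males. Since albumin is a hepatocyte gene, the endothelial, immune and stromal cells in each piece of tissue still carry the targeted genes. No tumor of a wild-type mouse and no tumor-free liver of a knockout mouse was analysed here, so tumor and genotype cannot be told apart in either comparison with the controls, and both comparisons use the same 4 control livers.

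E2F transcription factors drive the genes of S phase, RB holds the activating E2Fs back in resting cells, and E2F7 and E2F8 repress the same genes later in the cycle. A cell that copies its genome needs all of the deoxynucleotides at once. Ribonucleotide reductase makes them from ribonucleotides, whose rings are built from amino acids, bicarbonate, phosphoribosyl pyrophosphate and, for purines and thymidylate, one-carbon groups carried on folate. Adult hepatocytes seldom divide, but the liver is a main site of purine, serine, glycine and folate metabolism, so some of these enzymes are abundant there without any DNA synthesis.

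Total counts ran from 9165812 to 16424973 per library, and albumin took 4.82% to 22.7% of them. Control 2 and control 3 were more alike than the other pairs of controls, with a chi-square per degree of freedom of 19.9 against 62.7 to 74.3. That value is far beyond the sampling noise of one library, but it cannot tell 2 mice from 2 pieces of one liver. Control 2 and control 3 were counted as separate samples because the labels list them as separate livers. The codes in the sample descriptions share their letter in these 2 controls and TKO 1, in control 4, DKO 3 and TKO 4, and in control 1 and DKO 2, and what a letter stands for is not given in the sources used here. The deleted genes were checked first. Rb1 stood at 3.21 to 5.47 CPM, the count per megaread of a library size scaled by TMM, in the libraries labelled TKO, below the 6.52 to 11.3 CPM of the other 8 libraries. E2f7 lay between 0.236 and 1.84 CPM in all 12 libraries, and E2f8 lay at 4.52 to 8.97 CPM in the control livers against 7.59 to 45.6 CPM in DKO libraries and 12.3 to 52.2 CPM in TKO libraries. Counts over a whole gene include exons outside a deleted segment, and the deleted exons are not given in the sources used here, so the E2f7 and E2f8 counts do not check the labels and the groups are called by their labels throughout. In RNA from whole tissue, fewer cells of a type and less RNA per cell cannot be told apart.

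Every one of the 34 genes passed the filter on low counts, and the lowest count was the 10 reads of Mthfd2 in control 2. Together they took 0.140% to 0.149% of the counts in control livers, 0.119% to 0.168% in DKO and 0.141% to 0.186% in TKO. With albumin left out of the total, the shares were 0.156% to 0.163%, 0.154% to 0.192% and 0.171% to 0.211%. Per kilobase of annotated exon, the highest mean levels in control liver were those of Shmt2, at 79.4 CPM per kilobase, and Hprt, at 74.0, followed by Mthfd1 (67.6), Paics (67.1) and Nme2 (66.9). The lowest were Rrm2b at 0.621, Tyms at 0.885 and Impdh1 at 0.929 CPM per kilobase. Control liver held several folate, purine and salvage genes at high level, but the genes of a role were not alike. The reductase genes Rrm1 and Rrm2 stood at 4.85 and 3.26 CPM per kilobase. The purine gene Impdh1 and the folate genes Mthfd2 and Mthfd1l were below both.

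None of the 34 passed edgeR's quasi-likelihood test at an adjusted p of 0.05 in the comparison of DKO with control, where 2.42% of the 13882 genes tested did. That share depends on single libraries. It was 0% without control 2 or control 3, between 0.0352% and 0.0498% without control 4, DKO 1, DKO 2 or DKO 4, and between 0.683% and 4.6% without any one of the other 6. The lowest adjusted p was 0.0620, for Mthfd2. At an unadjusted p under 0.05, 8 members were higher and 2 lower, against 12.9% and 11.1% of all genes. DESeq2, the tool named in the study's methods, called 4 members higher (Rrm2, Mthfd2, Ctps2 and Impdh1) and 2 lower (Paics and Mthfd1), where it called 5.7% of all genes higher and 4.75% lower. With 1 library left out DESeq2 called 2 to 8 members, Mthfd1 and Mthfd2 each time and Rrm2 each time but without DKO 2. The share of all genes called ran from 4.62% to 11.8%, and it was 5.51% without DKO 2, where 2 members were called. Paics lost the call without control 2, control 3, DKO 1 or DKO 2, Ctps2 without any control but control 1 or without DKO 1, DKO 2 or DKO 4, and Impdh1 without control 2, control 3, TKO 1 or any DKO library. The groups did not overlap for 5 members that were higher in every tumor, Ctps, Ctps2, Impdh1, Mthfd2 and Mthfd1l, and for 2 that were lower in every tumor, Paics and Mthfd1 (all genes, 8.87% and 7.3%). The fold change was above 0 for 24 of 34 members, with a median log2 of 0.16, while 51.6% of all genes were above 0 with a median of 0.02.

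In the comparison of TKO with control, edgeR's quasi-likelihood test called 0 members and 0.0864% of all genes, and DESeq2 called 0 members and 3.49% of all genes. Without TKO 3, DESeq2 called 4 members (Dtymk, Ctps2 and Mthfd1l higher, Mthfd1 lower) and 6.58% of all genes. The lowest adjusted p with edgeR was 0.193, for Ctps2. At an unadjusted p under 0.05, 9 members were higher and 0 lower, against 9.94% and 6.33% of all genes. Only Tyms had no overlap, being higher in every tumor, and 0 members were lower without overlap (all genes, 4.38% and 3.29%). The fold change was above 0 for 25 members, with a median log2 of 0.21, while 52.5% of all genes were above 0. These directions depend on the scaling in part. With total counts as the only scaling, the median of all genes moved by 0.15 on the log2 scale in this comparison, the members above 0 became 31 of 34 and the share of all genes above 0 became 69.8%.

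**Figure D1:**
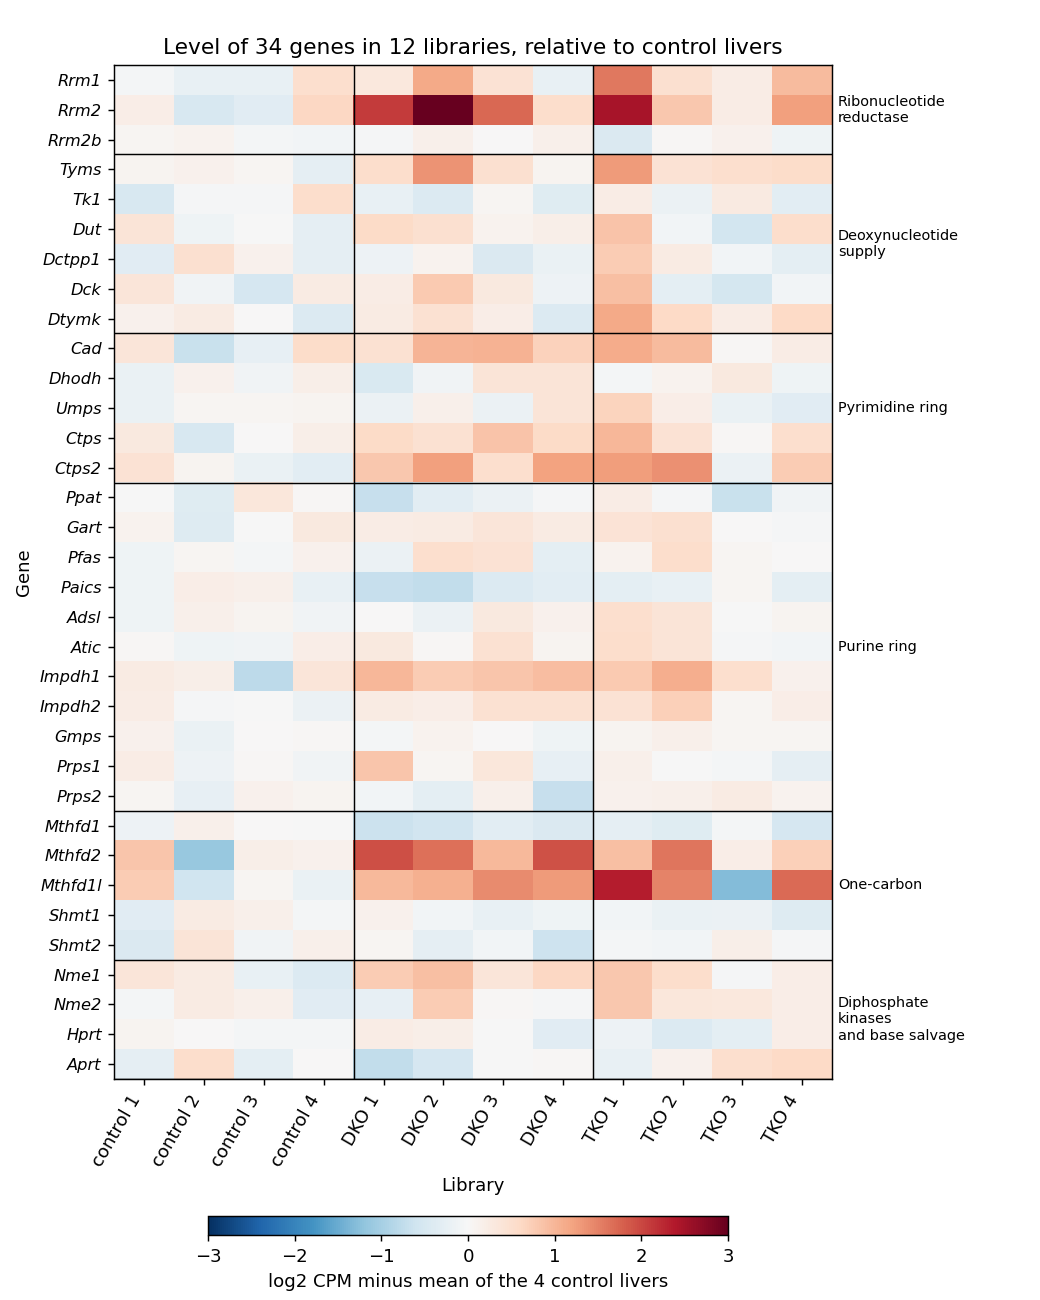
Each row is one of the 34 genes, grouped by role, and each column is one of the 12 libraries. The color is log2 CPM minus the mean of the 4 control livers for that gene, with the scale ending at 3 in either direction. Rrm2 and Mthfd2 are red in most tumor columns, Mthfd1l is red in 7 tumors and blue in TKO 3, and most purine genes are pale throughout.

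**Figure D2:**
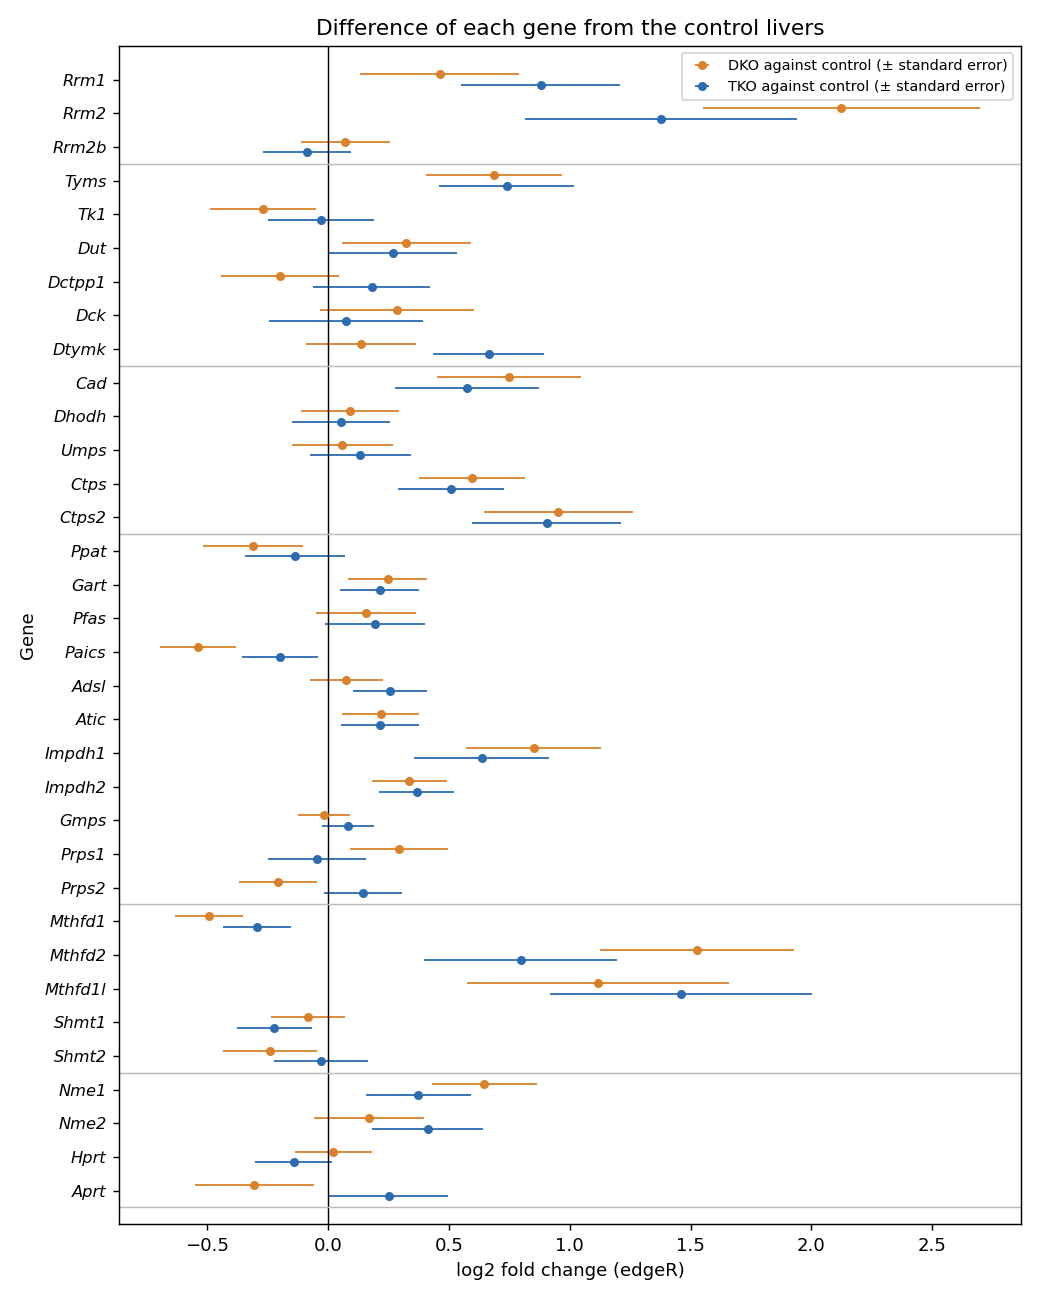
Points are log2 fold changes against the control livers from edgeR for the tumors labelled DKO (orange) and TKO (blue), and bars are standard errors. Rrm2 has the largest value for DKO at 2.12 and Mthfd1l the largest for TKO at 1.46, while Paics and Mthfd1 lie below 0 for both.

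Ribonucleotide reductase pairs the large subunit RRM1 with a small radical-bearing subunit, which is RRM2 in S phase and RRM2B, a p53 target, in resting cells and during repair. Rrm2 (chr12:25393106-25399011 in mm9, plus strand, 9 exon blocks) stood at 9.94, 6.15, 6.84 and 13.3 CPM in the 4 control livers. It stood at 37.4, 80.0, 28.9 and 12.5 CPM in DKO 1 to 4 and at 48.5, 15.4, 10.05 and 20.4 CPM in TKO 1 to 4. In each tumor group 3 of 4 libraries exceeded the highest control, and DKO 4 and TKO 3 fell within the control range. The log2 fold change for DKO was 2.12 (SE 0.573, 95% interval 0.88 to 3.37), with an adjusted p of 0.0656 by edgeR's quasi-likelihood test, an adjusted p of 0.00422 by DESeq2 and an exact permutation p of 0.0571. For TKO it was 1.38 (SE 0.564), with an adjusted p of 0.255 by edgeR's quasi-likelihood test. Without DKO 2 the DKO value was 1.53, and without TKO 1 the TKO value was 0.74. Leaving TKO 3 out of the common fit kept the DKO value at 2.12 and gave an adjusted p of 0.0484.

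The partner gene Rrm1 (chr7:109590209-109618285 in mm9, plus strand) had smaller fold changes. It measured 18.1, 16.2, 16.1 and 27.1 CPM in control livers, 23.6, 41.4, 25.8 and 16.1 CPM in the tumors labelled DKO and 56.8, 26.7, 22.2 and 36.9 CPM in those labelled TKO. DKO 2, TKO 1 and TKO 4 lay above every control, and the other 5 tumors did not. Its log2 fold change was 0.46 (SE 0.329) for DKO and 0.88 (SE 0.330) for TKO, with adjusted p of 0.422 and 0.222 by edgeR's quasi-likelihood test. Rrm2b was flat, at 3.73 to 4.30 CPM in control livers, 3.91 to 4.43 CPM in DKO and 2.89 to 4.37 CPM in TKO, and its log2 fold changes were 0.07 and -0.09. Within a library, the count of Rrm2 per 100 counts of Rrm1 was 37.9 to 54.9 in control livers, 77.7 to 193 in DKO and 45.2 to 85.4 in TKO, so that every DKO tumor was above every control and the TKO tumors overlapped both groups.

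The 6 genes of deoxynucleotide supply had median log2 fold changes of 0.21 for DKO and 0.22 for TKO. Tyms (chr5:30384742-30400157 in mm9, minus strand), thymidylate synthase, which makes dTMP from dUMP with a folate one-carbon group, measured 5.71, 5.90, 5.56 and 4.39 CPM in control livers, 7.74, 13.8, 7.51 and 5.72 CPM in DKO and 13.1, 7.32, 7.59 and 7.91 CPM in TKO. All 4 tumors labelled TKO and 3 of those labelled DKO were above every control. Its log2 fold changes were 0.69 (SE 0.280) and 0.74 (SE 0.280), with adjusted p of 0.160 and 0.225 by edgeR's quasi-likelihood test, besides exact permutation p of 0.0571 and 0.0286, the last being the smallest that 4 against 4 can give. Tk1 (chr11:117676840-117687406 in mm9, minus strand), the salvage thymidine kinase of S phase, measured 8.60, 11.8, 11.8 and 17.4 CPM in control livers, 10.3, 9.02, 12.5 and 9.32 CPM in DKO and 14.0, 10.6, 14.5 and 9.55 CPM in TKO. No tumor was outside the control range. Its log2 fold changes were -0.27 (95% interval -0.74 to 0.21) and -0.03 (-0.50 to 0.45), and the sign of the TKO value turned under some settings, as with total counts as the only scaling, which gave 0.12. The count of Tk1 per 100 counts of Rrm2 was 86.6 to 192 in control livers, 11.3 to 74.5 in DKO and 28.9 to 144 in TKO.

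Dtymk, the kinase that takes dTMP to dTDP, measured 14.0, 15.2, 12.9 and 9.66 CPM in control livers, 15.1, 17.6, 14.7 and 9.61 CPM in DKO and 28.2, 19.5, 14.96 and 19.4 CPM in TKO. Here 3 tumors labelled TKO were above every control and every tumor labelled DKO, while DKO and control overlapped. Its log2 fold change was 0.66 (SE 0.228) for TKO and 0.14 (SE 0.228) for DKO, where edgeR's quasi-likelihood test gave adjusted p of 0.194 and 0.753. The dUTPase gene Dut, the dCTP pyrophosphatase gene Dctpp1 and the deoxycytidine kinase gene Dck overlapped between all groups, with log2 fold changes between -0.20 and 0.32 in the comparisons with control. TKO 1 had the highest level of all 8 tumors for Dut, Dctpp1, Dck and Dtymk.

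**Figure D3:**
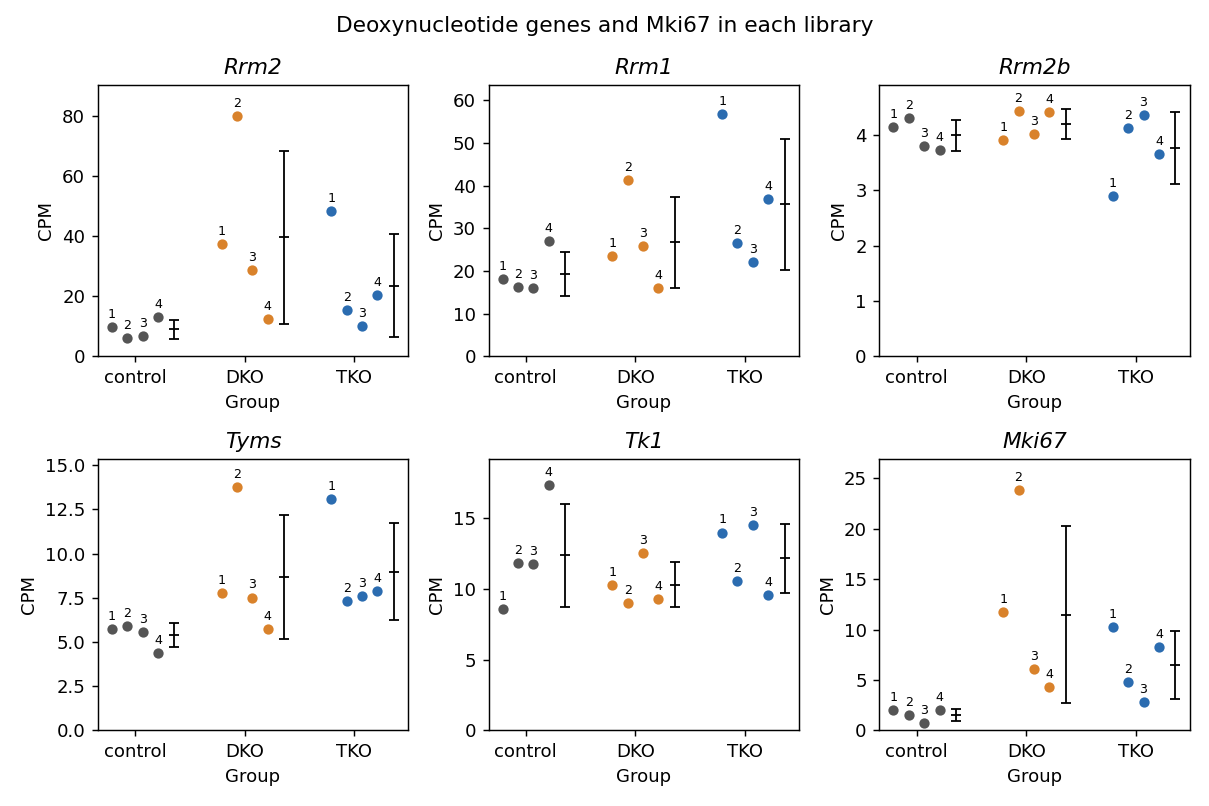
Each point is the CPM of one library, numbered by replicate, with the mean and SD of each group of 4 as a black bar. Rrm2 and the proliferation marker Mki67 are highest in DKO 2 (80.0 and 23.8 CPM), Tyms is above every control in all 4 TKO tumors, and Tk1 and Rrm2b overlap in all groups.

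The sequence before the start of 4 of these genes is shown because E2F proteins act through promoters and because these are the members whose values were fixed to be given in full. RefSeq annotation of GRCm38.p6, a later build than the mm9 of the counts, gave the 250 bases upstream of the start on the gene's own strand, at chr7:102441445-102441694 (plus) for Rrm1, chr12:24708004-24708253 (plus) for Rrm2, chr5:30073626-30073875 (minus) for Tyms and chr11:117826015-117826264 (minus) for Tk1. Capitals mark an E2F core, an E-box or a CCAAT box, read on either strand. The E2F core was taken as TTCCCGC in one spelling, TTCGCGC in another, and TTGCCGC and also TTGGCGC in the remaining spellings, and the E-box as CACGTG.
Rrm1: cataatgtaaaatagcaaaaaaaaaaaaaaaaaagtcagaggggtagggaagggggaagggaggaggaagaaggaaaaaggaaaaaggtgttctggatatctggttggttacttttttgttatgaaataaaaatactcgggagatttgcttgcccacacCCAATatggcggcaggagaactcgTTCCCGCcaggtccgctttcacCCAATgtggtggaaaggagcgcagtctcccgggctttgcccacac
Rrm2: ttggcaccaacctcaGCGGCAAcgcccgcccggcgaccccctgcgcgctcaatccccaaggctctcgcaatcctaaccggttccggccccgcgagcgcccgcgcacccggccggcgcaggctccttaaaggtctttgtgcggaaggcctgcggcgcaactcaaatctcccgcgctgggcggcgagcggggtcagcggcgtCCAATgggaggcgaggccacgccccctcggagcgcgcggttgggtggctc
Tyms: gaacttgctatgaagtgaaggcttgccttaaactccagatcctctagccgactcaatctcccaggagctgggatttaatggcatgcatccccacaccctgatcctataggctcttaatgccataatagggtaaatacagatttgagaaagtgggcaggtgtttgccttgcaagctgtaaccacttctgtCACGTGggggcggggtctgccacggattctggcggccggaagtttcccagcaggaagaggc
Tk1: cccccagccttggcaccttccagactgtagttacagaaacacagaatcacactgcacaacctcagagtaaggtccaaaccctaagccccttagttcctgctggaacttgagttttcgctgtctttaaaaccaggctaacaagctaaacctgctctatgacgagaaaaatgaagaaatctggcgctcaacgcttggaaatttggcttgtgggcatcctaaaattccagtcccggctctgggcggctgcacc
Rrm1 holds an E2F core between a pair of CCAAT boxes, Rrm2 an E2F core on the reverse strand far upstream and a CCAAT box near the start, Tyms an E-box alone, and Tk1 no match. In windows of 250 bases before and 50 after the start, searched on both strands, an E2F core was found in 12 of the 31 members with a promoter in the table, against 18.6% of the tested genes and 10.9% of all genes there. The E-box was found in 6 of 31 (11.63% of tested genes), CCAAT in 13 of 31 (42.9%) and the ATF4 core GATGCAA in 0 of 31 (2.51%). The 12 with an E2F core were Atic, Cad, Ctps, Dtymk, Impdh2, Mthfd1, Ppat, Prps1, Prps2, Rrm1, Rrm2 and Shmt1. These matches are letters in a window and do not show binding.

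Pyrimidine rings are built by CAD, DHODH and UMPS up to UMP, and CTP synthase turns UTP into CTP. All 5 genes had log2 fold changes above 0 against control in both tumor groups, with medians of 0.60 and 0.51, and the group held the CTP synthase pair. Ctps2, the X-linked gene (chrX:159339170-159470440 in mm9, plus strand), measured 10.98, 8.61, 7.12 and 6.52 CPM in control livers, 14.3, 19.2, 11.7 and 19.1 CPM in DKO and 19.7, 21.3, 7.21 and 13.9 CPM in TKO. All 4 tumors labelled DKO were above every control, and TKO 3 alone among the tumors was within the control range. The log2 fold change for DKO was 0.95 (SE 0.308, 95% interval 0.28 to 1.62), with an adjusted p of 0.0935 by edgeR's quasi-likelihood test and 0.0442 by DESeq2. For TKO it was 0.90 (SE 0.308), with an adjusted p of 0.193 by edgeR's quasi-likelihood test, and without TKO 3 it was 1.14 with an adjusted p of 0.0435. The DKO value without TKO 3, whose spread enters the common fit, was 0.95 with an adjusted p of 0.0410.

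Ctps, the other CTP synthase gene, is named here after its values were seen. It measured 9.42, 5.41, 7.73 and 8.71 CPM in control livers, 11.4, 10.5, 14.0 and 11.5 CPM in DKO and 15.4, 10.4, 7.90 and 10.9 CPM in TKO, so all DKO tumors and 3 TKO tumors were above the controls. Its log2 fold changes were 0.60 (SE 0.220) and 0.51 (SE 0.220), with adjusted p of 0.126 and 0.278 by edgeR's quasi-likelihood test. Cad, which encodes the enzyme of the opening 3 steps, measured 12.9, 6.27, 8.47 and 14.7 CPM in control livers, 13.9, 20.5, 20.9 and 16.4 CPM in DKO and 21.9, 19.4, 10.3 and 11.8 CPM in TKO. Its log2 fold change was 0.75 (SE 0.298) for DKO, with an adjusted p of 0.151 by edgeR's quasi-likelihood test, and 0.57 for TKO. Dhodh, the mitochondrial step, and Umps, the closing one, lay at log2 fold changes between 0.05 and 0.13 in both comparisons.

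**Figure D4:**
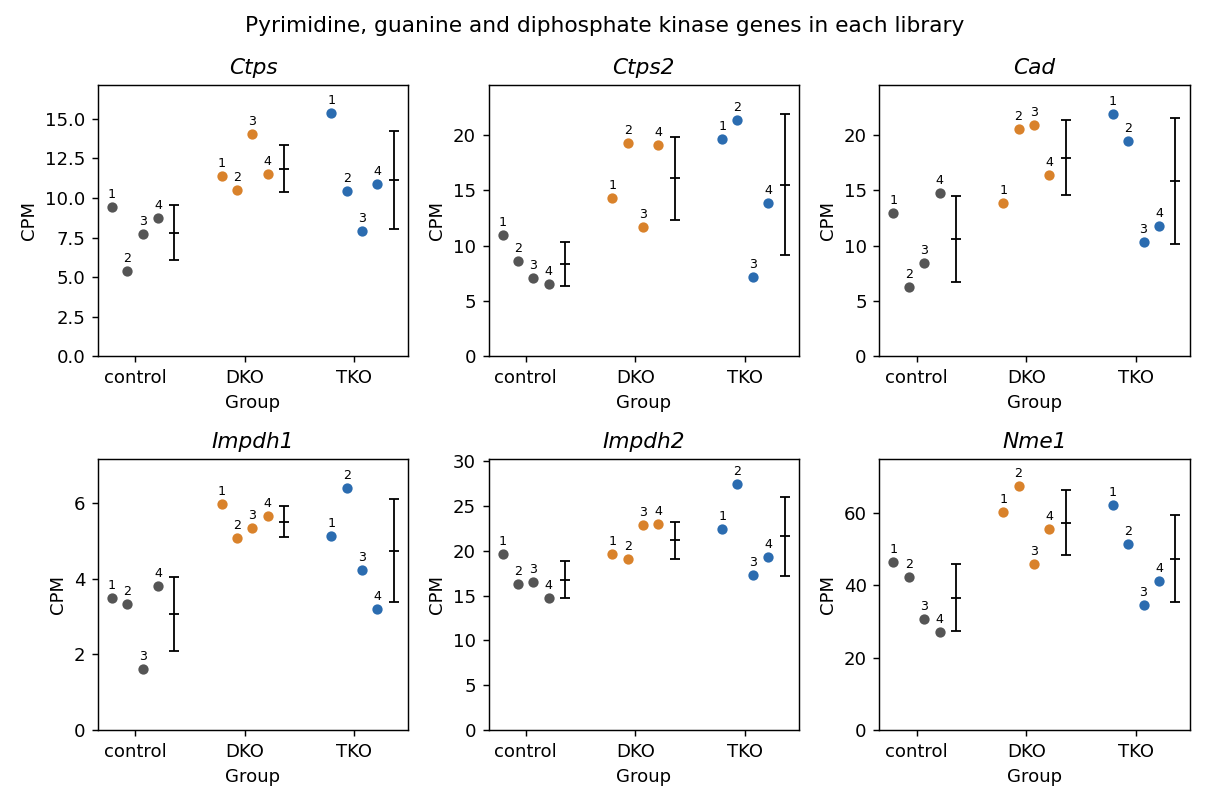
Each point is the CPM of one library, numbered by replicate, with the mean and SD of each group of 4 as a black bar. The 4 DKO points lie above every control for Ctps, Ctps2 and Impdh1, and TKO 3 is the lowest tumor for Ctps, Ctps2, Cad, Impdh2 and Nme1.

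Purine rings are assembled on phosphoribosyl pyrophosphate, which PRPS1 and PRPS2 make, through PPAT, GART, PFAS, PAICS, ADSL and ATIC to IMP, and IMPDH and GMPS lead on to GMP. The group was mixed, with 7 of 11 log2 fold changes above 0 for DKO (median 0.16) and 8 of 11 for TKO (median 0.19). Paics (chr5:77380332-77396534 in mm9, plus strand), the most abundant of the group per kilobase, measured 190, 239, 233 and 179 CPM in control livers, 130, 125, 157 and 168 CPM in DKO and 170, 179, 216 and 170 CPM in TKO. Every tumor labelled DKO was below every control liver and every tumor labelled TKO. The log2 fold change for DKO was -0.54 (SE 0.158, 95% interval -0.88 to -0.19), with an adjusted p of 0.0773 by edgeR's quasi-likelihood test and 0.0143 by DESeq2. For TKO it was -0.20 (SE 0.157), with an adjusted p of 0.569 by edgeR's quasi-likelihood test, and TKO exceeded DKO by 0.34 (SE 0.157), with an adjusted p of 0.556.

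Paics lies head to head with Ppat, and the annotated exons of the pair share 272 bases on opposite strands (6.15% of the exon length of Ppat and 8.67% of that of Paics), so without a stated strand setting reads there cannot be told apart. Ppat itself, the committed step of the pathway, was at 21.3 to 34.7 CPM in control livers, 16.9 to 26.6 CPM in DKO and 17.1 to 32.0 CPM in TKO, with log2 fold changes of -0.31 and -0.14. Paics per 100 counts of Gart was 500.0 to 1068 in control livers and 362 to 479 in DKO, without overlap, and 432 to 733 in TKO. Per 100 counts of Ppat, Paics was at 643 to 1123 in control livers, 570 to 768 in DKO and 532 to 1262 in TKO, and all groups overlapped. Gart, Pfas, Adsl and Atic had log2 fold changes between 0.08 and 0.26 in the comparisons with control, and all overlapped with the controls. Gmps overlapped in all groups, with log2 fold changes of -0.02 (95% interval -0.25 to 0.22) and 0.08 (-0.15 to 0.32).

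Among the IMP dehydrogenase genes, Impdh1 (chr6:29150434-29166364 in mm9, minus strand) measured 3.49, 3.32, 1.63 and 3.81 CPM in control livers, 5.98, 5.06, 5.32 and 5.66 CPM in DKO and 5.13, 6.40, 4.22 and 3.21 CPM in TKO. All tumors but TKO 4 were above every control. Its log2 fold change for DKO was 0.85 (SE 0.279), with an adjusted p of 0.0966 by edgeR's quasi-likelihood test and 0.0413 by DESeq2, and 0.64 (SE 0.280) for TKO, with an adjusted p of 0.286. Impdh2, the form typical of dividing cells, measured 19.6, 16.2, 16.5 and 14.7 CPM in control livers, 19.6, 19.1, 22.9 and 23.0 CPM in DKO and 22.4, 27.4, 17.3 and 19.2 CPM in TKO, with log2 fold changes of 0.34 (SE 0.156) and 0.37 (SE 0.156). Of the windows of 40 bases in the exons of Impdh2, the read length of the study, 92.4% occur elsewhere in mm9 as well, so its counts depend on how reads with several places were treated, which is not given in the sources used here. For Impdh1 the share was 0%.

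The phosphoribosyl pyrophosphate synthetase genes Prps1 and Prps2 had differences of opposite sign between the tumor groups. Prps2 measured 34.9, 28.3, 36.6 and 35.7 CPM in control livers, 31.7, 27.6, 37.3 and 20.9 CPM in DKO and 36.9, 37.3, 39.7 and 36.03 CPM in TKO, and TKO exceeded DKO by a log2 of 0.35 (SE 0.161), with an adjusted p of 0.554 by edgeR's quasi-likelihood test. Prps1 was at 39.1 to 50.6, 36.4 to 77.4 and 35.8 to 48.2 CPM, and its value for TKO against DKO was -0.34 (SE 0.203). The count of Prps2 per 100 counts of Prps1 was 68.9 to 88.7 in control livers, 40.9 to 67.7 in DKO and 76.6 to 101 in TKO, so DKO was below both other groups in every library.

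One-carbon units enter folate from serine through SHMT1 in the cytosol and SHMT2 in mitochondria. The cytosolic enzyme MTHFD1 carries 3 activities on the folate-bound unit, while MTHFD2 and MTHFD1L oxidise the unit and release it as formate in mitochondria. MTHFD2 is known as an embryonic and tumor enzyme that is scarce in adult liver. Mthfd2 (chr6:83255685-83267600 in mm9, minus strand) measured 5.27, 1.23, 3.25 and 3.15 CPM in control livers, 11.3, 9.41, 5.80 and 11.2 CPM in DKO and 5.49, 9.10, 3.30 and 4.85 CPM in TKO. All 4 tumors labelled DKO, and TKO 1 and TKO 2, were above every control. The log2 fold change for DKO was 1.53 (SE 0.401, 95% interval 0.65 to 2.40), with an adjusted p of 0.0620 by edgeR's quasi-likelihood test, 0.00624 by DESeq2 and an exact permutation p of 0.0286. For TKO it was 0.80 (SE 0.400), with an adjusted p of 0.349 by edgeR's quasi-likelihood test. The DKO value was 1.70 with an adjusted p of 0.0494 without DKO 3, and 1.52 with an adjusted p of 0.0462 without TKO 3.

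Mthfd1l measured 7.79, 2.95, 4.74 and 3.95 CPM in control livers, 9.05, 9.73, 12.5 and 11.2 CPM in DKO and 23.998, 13.0, 1.76 and 15.1 CPM in TKO. Every tumor but TKO 3 was above every control, and TKO 3 was below every control, a spread of 13.6 times within the TKO group. The log2 fold change was 1.12 (SE 0.541) for DKO and 1.46 (SE 0.543) for TKO, with adjusted p of 0.233 and 0.220 by edgeR's quasi-likelihood test. Without TKO 3 the TKO value was 1.82 with an adjusted p of 0.0210.

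The abundant cytosolic gene lay the other way. Mthfd1 (chr12:77356219-77420807 in mm9, plus strand) measured 202, 247, 226 and 224 CPM in control livers, 144, 150, 179 and 166 CPM in DKO and 185, 175, 216 and 157 CPM in TKO. Every tumor labelled DKO and 3 of those labelled TKO were below every control. The log2 fold change for DKO was -0.49 (SE 0.141, 95% interval -0.80 to -0.19), with an adjusted p of 0.0751 by edgeR's quasi-likelihood test and 0.00653 by DESeq2. For TKO it was -0.30 (SE 0.141), with an adjusted p of 0.326 by edgeR's quasi-likelihood test. Mthfd2 per 100 counts of Mthfd1 was 0.497 to 2.61 in control livers, 3.24 to 7.88 in DKO and 1.53 to 5.21 in TKO. Mthfd1l per 100 counts of Mthfd1 was 1.19 to 3.86, 6.29 to 6.999 and 0.818 to 13.0. Shmt1 and Shmt2 overlapped in all groups, with log2 fold changes of -0.08 and -0.24 for DKO and -0.22 and -0.03 for TKO. Per kilobase of exon, Mthfd1 was still the higher gene in the tumors, at 48.1 CPM per kilobase in DKO against 3.47 for Mthfd2 and 2.40 for Mthfd1l.

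**Figure D5:**
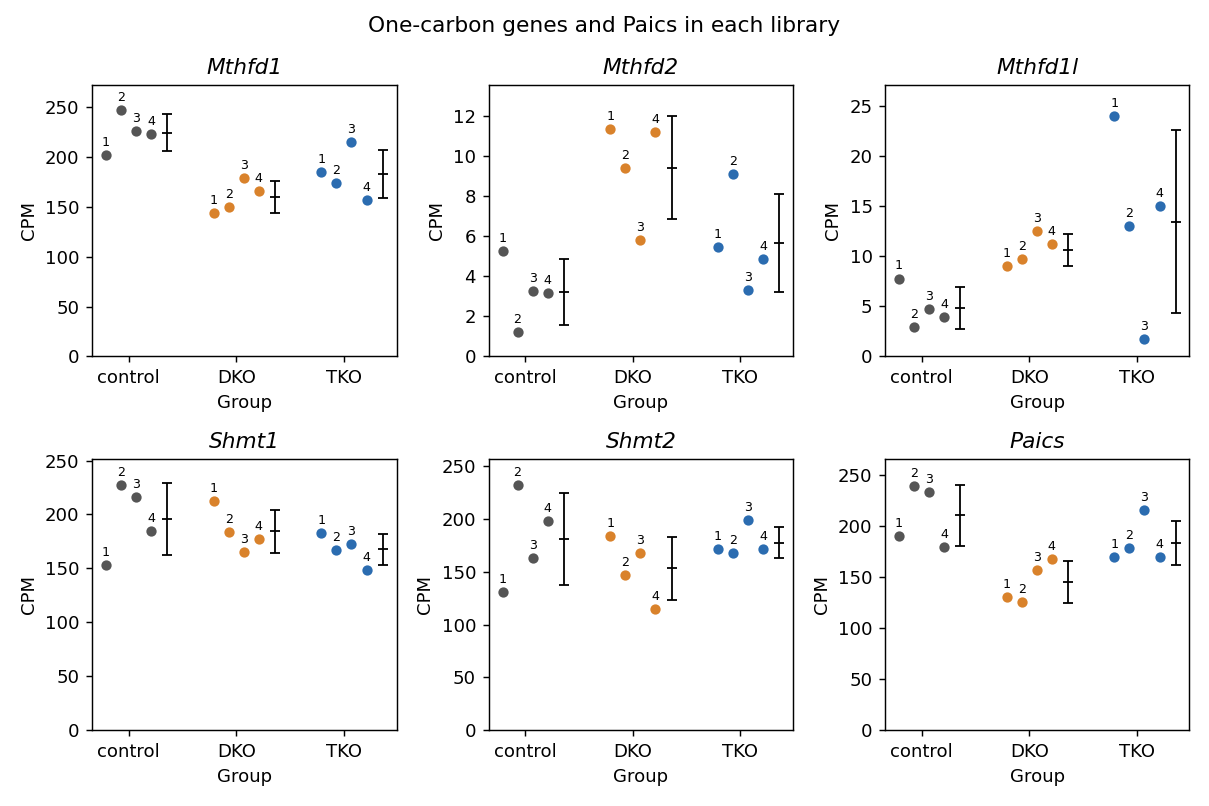
Each point is the CPM of one library, numbered by replicate, with the mean and SD of each group of 4 as a black bar. Mthfd2 and Mthfd1l are above every control in all 4 DKO tumors, Mthfd1 and Paics are below every control in the same tumors, and Mthfd1l ranges from 1.76 CPM in TKO 3 to 23.998 CPM in TKO 1.

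The upstream sequence of the Mthfd1 and Mthfd2 genes is shown since every DKO tumor was below the controls for the former and above them for the latter. RefSeq annotation of GRCm38.p6 gave 250 bases before the start of Mthfd1 at chr12:76254982-76255231 (plus) and of Mthfd2 at chr6:83317605-83317854 (minus), with capitals for the same motifs as above.
Mthfd1: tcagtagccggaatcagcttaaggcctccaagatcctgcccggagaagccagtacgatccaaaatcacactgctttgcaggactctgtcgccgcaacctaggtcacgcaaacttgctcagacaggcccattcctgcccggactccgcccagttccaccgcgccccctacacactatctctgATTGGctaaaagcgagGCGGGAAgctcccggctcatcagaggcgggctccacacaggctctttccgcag
Mthfd2: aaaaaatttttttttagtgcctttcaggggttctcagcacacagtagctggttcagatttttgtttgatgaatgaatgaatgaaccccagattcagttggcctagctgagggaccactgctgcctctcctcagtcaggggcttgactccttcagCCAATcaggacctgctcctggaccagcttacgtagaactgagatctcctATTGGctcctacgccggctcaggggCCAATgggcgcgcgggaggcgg
The Mthfd1 stretch holds a CCAAT box and an E2F core, both on the reverse strand, and the Mthfd2 stretch holds 3 CCAAT boxes and no E2F core. Neither holds the E-box or the ATF4 core.

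Nucleoside diphosphate kinases pass phosphate between nucleotides at the triphosphate step, and HPRT and APRT recover purine bases. Nme1 measured 46.4, 42.3, 30.8 and 27.02 CPM in control livers, 60.3, 67.4, 46.0 and 55.5 CPM in DKO and 62.2, 51.5, 34.7 and 41.1 CPM in TKO. DKO 3 alone of the DKO tumors lay below the highest control. For Nme1 the log2 fold change was 0.65 (SE 0.217) for DKO and 0.37 (SE 0.217) for TKO, with adjusted p of 0.103 and 0.421 by edgeR's quasi-likelihood test. Nme2 measured 74.0, 92.1, 86.6 and 60.8 CPM in control livers, 65.5, 132, 79.4 and 75.3 CPM in DKO and 135, 97.3, 96.1 and 88.5 CPM in TKO, with log2 fold changes of 0.17 (SE 0.228) and 0.41 (SE 0.228). The 2 genes are neighbors on one strand, 418 bases of Nme1 exon lie in an annotated locus that reads through into Nme2, and 29.9% of the windows of 40 bases in Nme2 occur elsewhere in mm9, so their split is uncertain.

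Hprt was even, at 91.6 to 102 CPM in control livers, 75.2 to 110 CPM in DKO and 72.1 to 110 CPM in TKO, with log2 fold changes of 0.02 (95% interval -0.32 to 0.37) and -0.14 (-0.49 to 0.20). Aprt measured 26.5, 46.5, 26.1 and 32.4 CPM in control livers, 19.1, 22.5, 31.9 and 32.5 CPM in DKO and 27.5, 35.1, 45.0 and 48.6 CPM in TKO. It was lower than control in DKO and higher in TKO by mean, with log2 fold changes of -0.31 (SE 0.246) and 0.25 (SE 0.245), and all 3 groups overlapped.

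Between the tumor genotypes, which differ in the added loss of Rb1 and may differ in age, edgeR's quasi-likelihood test called 0 members and 0% of all genes. DESeq2 called 0 members and 0.398% of all genes. At an unadjusted p under 0.05, 3 members were higher in TKO (Dtymk, Prps2 and Aprt) and 0 lower, against 5.16% and 3.84% of all genes. Paics alone had no overlap, and it was higher in TKO (all genes without overlap, 2.75% higher and 2.12% lower). In 18 of 34 members the log2 fold change was above 0, against 51.2% of all genes, with a median of 0.03. The log2 difference was -0.74 for Rrm2 (95% interval -1.93 to 0.44) and -0.73 for Mthfd2 (-1.57 to 0.11), both lower in TKO by mean, and 0.56 for Aprt (0.02 to 1.09). Rrm2 stood at -0.15 without DKO 2. For Cad, the pyrimidine gene with the lowest p, the value was -0.18 (-0.81 to 0.46).

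The tumors of one genotype also differed from one another. TKO 1 had 21 of 34 members above the highest control, where 26.6% of all genes were, and TKO 2 had 19 (28.6%). TKO 3 had 6, where 21.5% of all genes were above. The tumors labelled DKO had 13, 18, 16 and 11 members above, in order, with 26.2% to 29.8% of all genes, and TKO 4 had 10 (26.9%). Among the 8 tumors, TKO 1 was the highest for 13 members and TKO 3 the lowest for 10. Since these counts come from single tumors, they describe those tumors and not the genotypes.

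Markers of cycling cells were set beside the reductase values. All 17 cycling genes tested had log2 fold changes above 0 in both comparisons with control, and their summed level was 63.4 to 187 CPM in control livers, 109 to 388 CPM in DKO and 107 to 381 CPM in TKO, with none at 0 in any library. edgeR's quasi-likelihood test called 2 of them in DKO, Mki67 (log2 2.89, adjusted p = 0.0425) and Plk1 (2.21, adjusted p = 0.0469), and 0 in TKO, while DESeq2 called 9 (52.9%) and 3 (17.6%), where it called 10.4% and 3.49% of all genes. With edgeR both calls were lost without any one control, DKO 1, DKO 2, DKO 4 or TKO 1, and with total counts as the only scaling, and that of Plk1 also without TKO 2, with adjusted p up to 0.134 for Mki67 and 0.140 for Plk1, while DESeq2 called both genes in DKO whichever library was left out. Both edgeR calls were also lost with the Y-linked genes as a covariate (adjusted p of 0.114 and 0.133) and with the description letter as a block. Mki67 measured 2.00, 1.48, 0.678 and 1.98 CPM in control livers, 11.7, 23.8, 6.09 and 4.30 CPM in DKO and 10.3, 4.76, 2.76 and 8.28 CPM in TKO. Within each tumor group the tumors with the highest and the lowest Mki67 were also those with the highest and the lowest Rrm2. The same held for Rrm1, Dck and Dtymk, and for Tyms except that TKO 2 was its lowest TKO tumor. Other members differed from Mki67. Tk1 was lowest of the DKO tumors in DKO 2 and highest of the TKO tumors in TKO 3. Mthfd2 was highest in DKO 1 and TKO 2 and lowest in DKO 3 and TKO 3. The part of cycling cells in the Rrm2, Tyms and Mthfd2 values was not tested.

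Markers of other cell types were read in the same way. Endothelial genes were above 0 in 4 of 5 for DKO and 5 of 5 for TKO, DESeq2 called Pecam1 and Lyve1 higher in DKO, and the summed level of the list was 78.1 to 131 CPM in control livers, 112 to 173 CPM in DKO and 125 to 204 CPM in TKO. Both calls depended on single libraries. Lyve1 was at 3.30, 5.77, 28.6 and 0.943 CPM in DKO 1 to 4 against 0.984 to 2.78 CPM in control livers, and was not called without DKO 2, DKO 3 or control 1. Pecam1 was at 69.5 CPM in DKO 4 and 21.8 to 30.1 CPM in the other DKO tumors, and was not called without DKO 4. Neither was called without control 2 or control 3. In TKO both genes were above every control in every tumor (40% of the list, all genes 4.38%), and neither tool called them there with all libraries in the fit. Hepatocyte markers were abundant in every library, with DESeq2 calling 1 of 8, Ttr, lower in DKO. The Kupffer cell and macrophage list was above 0 in 1 of 6 genes and the lymphocyte list in 0 of 5 in both comparisons with control. Among the Kupffer cell, stellate cell, cholangiocyte, lymphocyte, neutrophil and erythroid lists, neither edgeR's quasi-likelihood test nor DESeq2 called a gene in any comparison. Only Ly6g of the neutrophil list was at 0 in a library. The summed level of the Kupffer cell list was 193 to 517 CPM in control livers, 63.0 to 439 CPM in DKO and 131 to 580 CPM in TKO. The part of these cells in the values above was not tested.

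The surrounding pathway was read from 69 further genes of nucleotide breakdown, nucleotide kinases, serine and glycine supply, folate handling and the methionine cycle, of which 68 were tested. Against control, edgeR's quasi-likelihood test called 1 of them in DKO, Upb1, and 0 in TKO, while DESeq2 called 4 higher and 8 lower in DKO (17.6% of the list, all genes 10.4%) and 0 higher and 7 lower in TKO (10.3%, all genes 3.49%). The median log2 fold change was -0.15 and -0.13. Upb1, the last enzyme of pyrimidine breakdown, measured 166, 252, 223 and 159 CPM in control livers, 81.3, 87.9, 102 and 115 CPM in DKO and 126, 134, 139 and 133 CPM in TKO. It fell by 1.05 on the log2 scale in DKO (SE 0.173, adjusted p = 0.0292 by edgeR's quasi-likelihood test), was below every control in all 8 tumors, and had a value of -0.59 (SE 0.172) in TKO with an adjusted p of 0.149. With edgeR the DKO call was lost without control 2, control 3, control 4, DKO 1, DKO 2 or DKO 4 (adjusted p of 0.0517 to 0.111) and with total counts as the only scaling (0.0648), and DESeq2 called it whichever library was left out. The edgeR call was also lost with the Y-linked genes as a covariate (adjusted p = 0.103) and with the description letter as a block.

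Gnmt, glycine N-methyltransferase, which uses up methyl groups in liver, measured 709, 1139, 833 and 811 CPM in control livers, 341, 171, 339 and 288 CPM in DKO and 201, 319, 679 and 150 CPM in TKO. DESeq2 called it lower in both comparisons, with adjusted p of 0.00340 and 0.0307, and edgeR's quasi-likelihood test gave log2 fold changes of -1.62 and -1.37 with adjusted p of 0.0604 and 0.160. Ahcy, which clears S-adenosylhomocysteine, measured 675, 752, 668 and 758 CPM in control livers, 431, 358, 527 and 398 CPM in DKO and 337, 341, 554 and 308 CPM in TKO. Adk, adenosine kinase, measured 1026, 942, 998 and 782 CPM, then 718, 717, 675 and 655 CPM, and 589, 583, 731 and 528 CPM. Both genes were below every control in all 8 tumors, with log2 fold changes of -0.89 (SE 0.214) and -0.62 (SE 0.175) in TKO and adjusted p of 0.122 and 0.146 by edgeR's quasi-likelihood test. Nt5e, the cell-surface nucleotidase CD73, measured 8.23, 6.15, 4.61 and 6.30 CPM in control livers, 10.3, 34.8, 13.8 and 151 CPM in DKO and 16.9, 18.7, 5.52 and 21.04 CPM in TKO, so DKO 4 carried much of a log2 fold change of 3.05 (SE 0.765, adjusted p = 0.0552 by edgeR's quasi-likelihood test). Between the tumor genotypes 0 of the 68 were called by either tool, and the lowest p belonged to Nme4 (log2 0.94, SE 0.306), Upb1 (0.46, SE 0.172) and Uck1 (0.42, SE 0.165), each higher in every TKO tumor than in every DKO tumor, with adjusted p of 0.450 to 0.516 by edgeR's quasi-likelihood test.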

How the data were processed

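Poly(A) RNA from 4 livers per condition was made into SOLiD libraries and read at 40 bases. The authors deposited raw read counts per Entrez gene, mapped to mm9 with BWA and counted with featureCounts, per the submitters' processing notes. Versions, strand setting and the treatment of reads with several places are not given in the sources used here. Symbols came from RefSeq and matched 24191 of 26301 identifiers, holding 99.4% of the counts. Totals of 9165812 to 16424973 set the precision, and a member's lowest count was 10.

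Counts were fitted in edgeR 4.0.16 (R 4.3.3) with TMM scaling, filterByExpr and the quasi-likelihood test, with one mean per group over all 12 libraries, and p-values were adjusted by Benjamini-Hochberg over the 13882 genes kept. DESeq2 1.42.0, the study's tool, and limma 3.58.1 (voom) were alternatives. CPM values use TMM library sizes, and log2 CPM a prior count of 2. Exact permutation tests were two-sided over the 70 assignments of 4 against 4 libraries, with p of 0.0286 at the smallest. The scripts were tested on simulated data. Levels per kilobase divide CPM by the annotated exon length of mm9.

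Members and lists were chosen with earlier results of these data known. Values in every library were given for Rrm1, Rrm2, Tyms and Tk1, for members called by either tool and for the member with the lowest p in each role and comparison. Among the other pathway genes, called genes and the 3 with the lowest p in each comparison were named. Ctps, Prps1 and the genes without overlap were added after their values were seen. Ratios of counts were also taken for Rrm2 to Rrm2b, Tk1 to Tyms and Ctps2 to Ctps. Further ratios taken were Impdh1 to Impdh2, Shmt2 to Shmt1 and Nme1 to Nme2. All groups overlapped in each of these ratios, whose values are not printed. Libraries were grouped by their labels, which number the samples within a group. Letters shared between the codes in the sample descriptions have no stated meaning and were tried as a block.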

Additional observations from a re-analysis of the deposited data

Results flagged for a closer look

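Over 102 sets of 4 values, one for each member in each group, 4 had a library set apart from the other 3 by Dixon's criterion, and chance gives about 1 in 20 sets. Tyms stood at 13.1 CPM in TKO 1, against 7.32 to 7.91 CPM in the other TKO tumors. Pfas stood at 12.2 CPM in TKO 2, against 8.50 to 8.98 CPM in the others of its group. Shmt2 stood at 199 CPM in TKO 3, against 168 to 172 CPM in the other TKO tumors. Umps stood at 38.05 CPM in control 1, against 45.3 to 46.1 CPM in the other control livers. The cause was not tested for any of them.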

How the results depend on the processing

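The number of members called in DKO against control was 0 with edgeR's quasi-likelihood test. It was 6 with DESeq2, 3 with edgeR's likelihood ratio test, 8 with voom and quality weights, 3 with the 8 libraries of the comparison alone, 6 at an adjusted p of 0.1, and 0 to 3 when 1 library was left out, the 3 (Rrm2, Ctps2 and Mthfd2) being found without TKO 3 and Mthfd2 alone without DKO 3. The share of all genes called under the other 5 settings was 10.4%, 8.11%, 13.0%, 5.65% and 10.5% in the same order, against 2.42% with the quasi-likelihood test. For TKO against control 0 members were called under each of these settings, and leaving out 1 library gave 0 to 2, the 2 (Ctps2 and Mthfd1l) without TKO 3. Without TKO 3 the share of all genes called was 4.6% in DKO and 1.63% in TKO, against 2.42% and 0.0864% with it. For TKO against DKO 0 were called under every setting run. DESeq2 with 1 library left out, chosen after seeing the data, called 8 members in DKO without TKO 3, 7 without control 1, 2 without DKO 2 and 3 to 6 without any one of the other 9, and in TKO 4 without TKO 3 and otherwise 0. The share of all genes called in DKO was 11.8%, 11.3%, 5.51% and 4.62% to 11.5% in the same order. In TKO that share was 6.58% without TKO 3 and otherwise 0.944% to 4%. With the Y-linked genes as a covariate 0 members were called, and 0% of all genes in DKO, against 2.42% without it. The sample titles do not name the sex of the mice, and the Y-linked levels are not printed here. Whether sex differs between the groups was not tested.

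The value of TKO against control for Tk1, -0.03, turned to 0.0408 with voom and to 0.12 with total counts as the only scaling, and ran from -0.17 to 0.18 with 1 library left out. TKO against DKO for Ctps2, -0.05, turned to 0.0248 with total counts only and ran from -0.24 to 0.19 with 1 library left out, and that for Tyms, 0.05, ran from -0.19 to 0.36. Of 792 fold changes under alternatives, over 36 genes and comparisons, 753 kept their direction and their side of the threshold, 26 kept their direction and passed it, and 13 changed direction. The cause was not tested.

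With the replicate number as a block, 1 member was called in DKO against control, Nme1 (log2 0.67, adjusted p = 0.0370 by edgeR's quasi-likelihood test), where 3.67% of all genes were, and 0 in the other 2 comparisons. Libraries that share a number come from different mice. Their deviations from the group means correlated at r of -0.174 to 0.370 against -0.351 to 0.322 for other pairs. Of 12 libraries, 6 correlated best with their own number. Whether a shared number stands for more than the order of the samples was not tested. With the letter of the description codes as a block, chosen after seeing the data, 0 members were called in each comparison, with 0% of all genes in DKO and 0.317% in TKO, and the 6 pairs across groups with one letter had r of -0.234 to 0.235. Depth limits Mthfd2, Impdh1 and Rrm2b, each with few reads in control livers.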

Other observations

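Further genes of the surrounding pathway, chosen after their values were seen, are given as values. The methionine cycle holds 2 genes for methionine adenosyltransferase, Mat1a of the adult hepatocyte and Mat2a of most other cells. Mat1a measured 4602 to 5870 CPM in control livers, 1516 to 3505 CPM in DKO and 1563 to 3680 CPM in TKO, so every tumor was below every control, and DESeq2 called it lower in both comparisons (adjusted p = 0.0265 and 0.0414). Mat2a measured 61.0 to 73.0 CPM, 81.7 to 149 CPM and 81.1 to 163 CPM, so every tumor was above every control, and DESeq2 called it higher in DKO (adjusted p = 0.0137) and gave an adjusted p of 0.0708 in TKO. With edgeR's quasi-likelihood test the log2 fold changes were -0.93 and -0.96 for Mat1a and 0.85 and 0.74 for Mat2a, with adjusted p between 0.0648 and 0.205.

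The serine synthesis genes Phgdh, Psat1 and Psph, which feed one-carbon units, varied widely between tumors. Phgdh stood at 0.407 to 1.83 CPM in control livers, at 8.82, 6.72, 1.12 and 6.25 CPM in DKO 1 to 4 and at 9.53, 29.9, 0.384 and 0.746 CPM in TKO 1 to 4. Psat1 was at 2.37 to 4.91 CPM in control livers and above that range in every tumor but TKO 3, at 2.30 CPM. Psph was at 7.32 to 8.90 CPM in control livers and above that range in every tumor but TKO 4, at 6.56 CPM. TKO 3 held the lowest Phgdh and Psat1 of the 8 tumors, as it did the lowest Mthfd1l. DESeq2 called Psat1 higher in DKO (adjusted p = 0.0439), and edgeR's quasi-likelihood test called none of the 3 genes.

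Dpyd and Dpys, the enzymes before Upb1 in pyrimidine breakdown, were below every control in all 4 DKO tumors. Dpyd measured 539 to 712 CPM in control livers, 216 to 363 CPM in DKO and 203 to 614 CPM in TKO, with a log2 fold change of -1.24 (SE 0.334) in DKO and an adjusted p of 0.0652 by edgeR's quasi-likelihood test and 0.00649 by DESeq2. Dpys measured 302 to 438 CPM, 244 to 294 CPM and 189 to 361 CPM, with a log2 fold change of -0.45 (SE 0.203) in DKO and an adjusted p of 0.196 by edgeR's quasi-likelihood test.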
